A study of Homo sapiens with 24 samples.

Results

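The 35 genes described here were at or near 0 in parental KYSE450 cells and expressed in the chemoresistant cells derived from the same line. KYSE450 is a widely used cell line grown from a human squamous carcinoma of the oesophagus. Messenger RNA was sequenced in 24 libraries, 6 in each of 4 groups that all carry the wild-type genotype label: parental cells, parental drug tolerant persister (DTP) cells, chemoresistant cells (titled KYSE450DDP) and chemoresistant DTP cells. Persisters are cells that live through drug exposure without carrying a resistance mutation. The labels name no drug, dose or exposure time, leave the suffix DDP unexplained, list no treatment for the cultures of any group, and do not say whether the chemoresistant cells are 1 clone. Separate cultures are not stated for the 6 libraries of each group, so p-values cover only library-to-library spread, which may be technical.

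Members were chosen by their mean FPKM (reads scaled to gene length and library total) in the parental and chemoresistant libraries: at most 0.5 in the former and at least 5 in the latter, with an annotated symbol. Of 61251 genes in the table, 49 met both levels. Of these, 3 lacked a symbol and 11 carried a prefix that the rule leaves out, such as those of aldo-keto reductases, S100 proteins, keratins, chemokines and HLA genes, which left 35. The reverse pattern, at most 0.5 FPKM in chemoresistant and at least 5 in parental cells, was met by 7 genes. Because both groups chose the members, the difference between chemoresistant and parental cells is described below without a test. The 12 DTP libraries took no part in the choice, and p-values are printed for their comparison alone. The expression filter of the fit and its estimate of spread used all 24 libraries, so these p-values are not fully independent of the rule. The comparisons of DTP with other cells of the same line each use 1 group that chose the members: for these, fold changes are descriptions, and the genes that pass the threshold of the fit ("rose", "fell" or "called") are given only as counts or directions to be read beside the share of all tested genes.

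At the edge of the rule, LTB (0.493 FPKM), SLC43A1 (0.480) and PRR15 (0.479) had the highest parental means among members, and ADRA2C (0.5025), RTN4RL2 (0.514) and NLRC5 (0.525) lay just outside. On the other side USH1G (5.07 FPKM), NUPR1 (5.10) and LTB (5.23) had the lowest chemoresistant means, and MAPK8IP2 (4.94), INHBE (4.81) and HCP5 (4.62) lay just outside. In 27 members every parental library was at or below 0.5 FPKM, and in 26 every chemoresistant library was at or above 5 FPKM.

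Recovered library totals ran from 14947379 to 37989445 reads, so that 0 reads allow up to 0.079 to 0.201 CPM (reads scaled to the library total), which covers counting error only. All 11 defining markers of squamous oesophageal carcinoma cells were at or above 1 FPKM, with summed levels between 3014 and 5496 FPKM per library. Summed markers of leukocytes stayed between 0.332 and 3.05 FPKM, of endothelium between 0.743 and 1.76 and of erythroid cells between 0 and 1.34. Those of fibroblasts ran from 1.74 to 20.1 FPKM, with 4 of 10 at or above 1 FPKM in some group, all of them matrix genes (COL1A1, COL1A2, COL3A1, LUM). Glandular epithelium markers summed to 6.32 to 24.1 FPKM and were led by AGR2, which was highest in parental DTP cells, and neuronal ones summed to 0.793 to 4.80.

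Several of the members belong to programs with known biology. Type I and type II interferons act through receptors, JAK kinases and STAT factors to switch on genes that sense viral RNA, restrict viral replication or alter membranes, and many of these genes are nearly silent in unstimulated epithelium. Others take part in amino acid supply during stress, in the conjugation and export of foreign compounds, or in the coat of mucosal surfaces, where carcinoembryonic antigen-related adhesion molecules and mucin-modifying enzymes are found. By known role, 9 members were grouped as interferon-stimulated, 4 as stress and amino acid transport genes, 2 as conjugation and export genes, 6 as epithelial surface genes, 3 as secreted signals, 7 as other protein coding genes and 4 as noncoding genes or pseudogenes. This grouping was made after the values were seen.

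**Figure D1:**
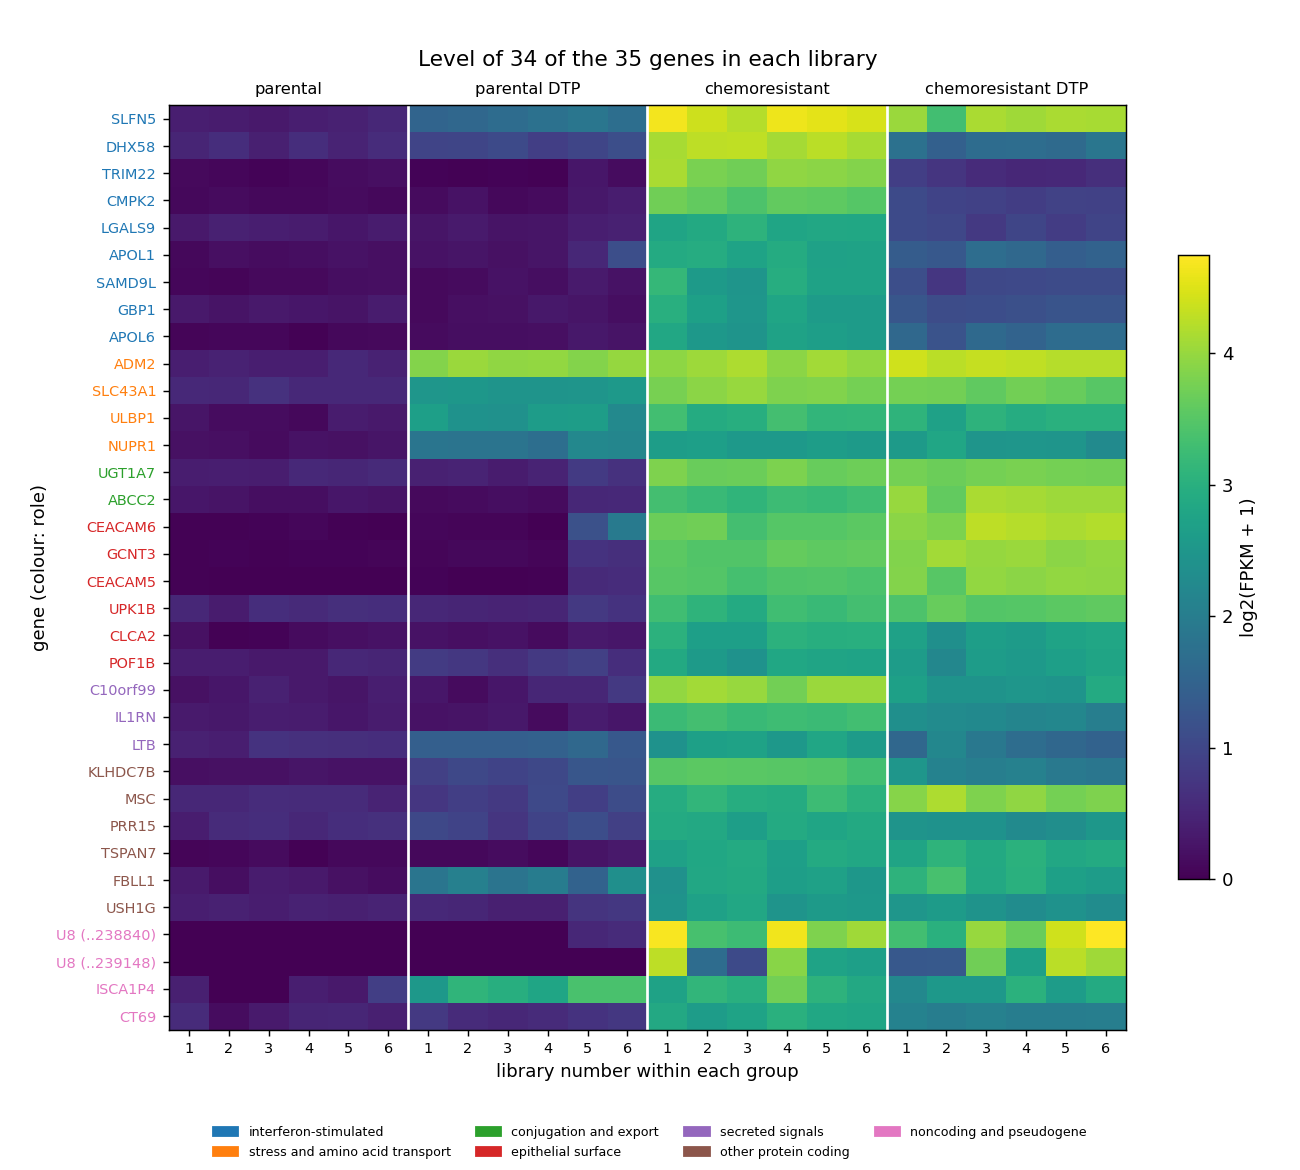
Heat map of log2(FPKM + 1), where FPKM is reads scaled to gene length and library total, for 34 of the 35 genes (rows, label colour by role) in the 24 libraries (columns, numbered 1 to 6 within each group). The parental block is dark throughout because of how the genes were chosen. In the parental DTP block ADM2, SLC43A1, ULBP1, NUPR1, FBLL1 and ISCA1P4 are bright, and the interferon-stimulated rows are dimmer in the chemoresistant DTP block than in the chemoresistant one.

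The comparison of chemoresistant DTP with parental DTP cells asked whether the genes that set the 2 lines apart also set their persisters apart. They did for nearly all members: 34 of 35 were higher in chemoresistant DTP cells, 0 were lower and 1 did not pass (limma on log2(FPKM + 1), Benjamini-Hochberg adjusted over 13729 genes). Of all tested genes, 29.5% were called higher and 32.3% lower. In 33 members all 6 chemoresistant DTP libraries lay above all 6 parental DTP libraries, which was so for 16.5% of tested genes. The median log2 fold change was 1.46 over the members and -0.02 over all tested genes. Both persister groups come from the lines whose other libraries chose the members, so this count also carries the difference between the lines. The exceptions to full separation were LTB, which passed the test with overlapping libraries, and the pseudogene ISCA1P4.

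**Figure D2:**
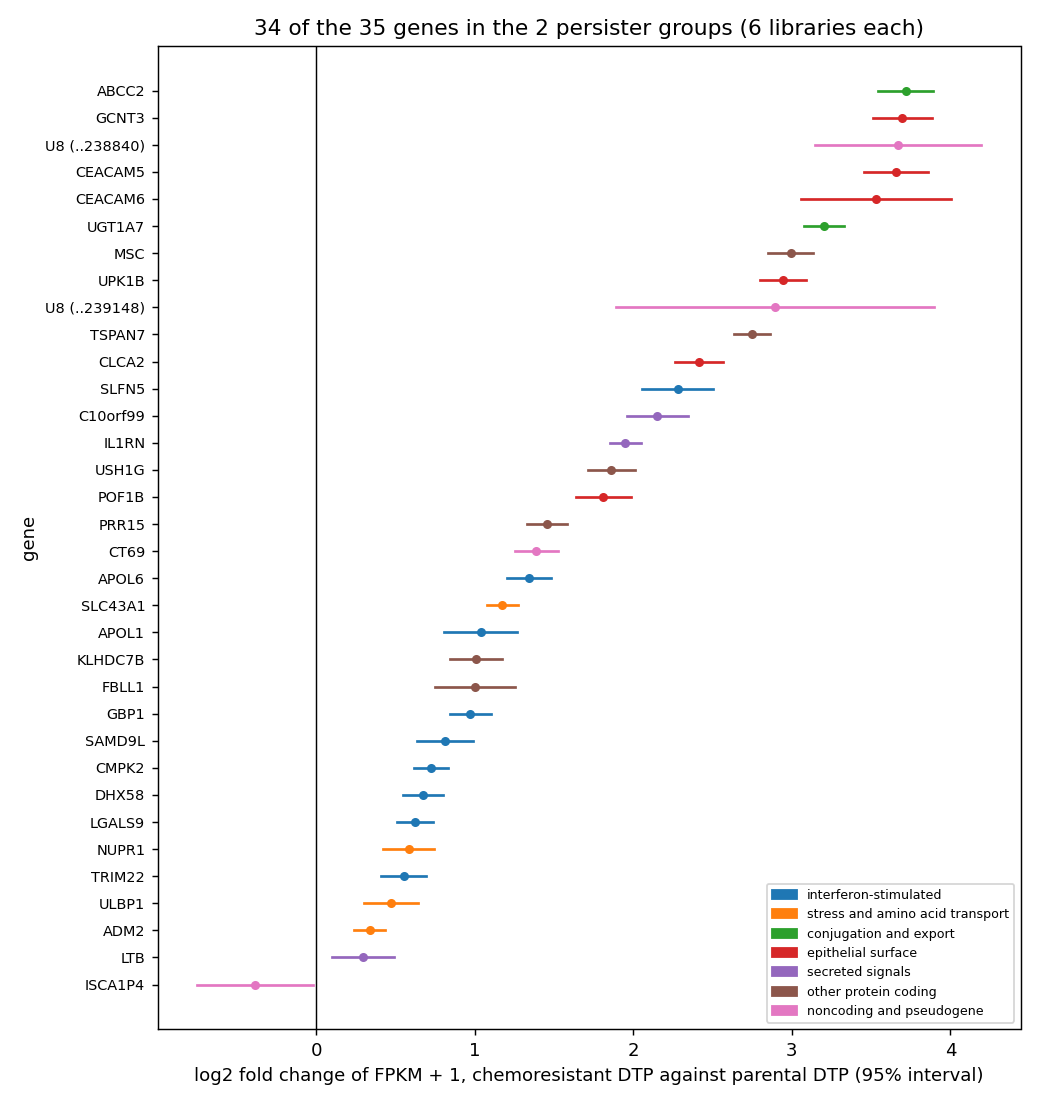
Log2 fold change of FPKM + 1 between chemoresistant DTP and parental DTP cells (6 libraries each) for 34 of the 35 genes, with 95% intervals, coloured by role. All points but ISCA1P4 (-0.39) lie above 0, from LTB (0.29) to ABCC2 (3.72).

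Among the interferon-stimulated members, chemoresistant DTP cells held only part of the chemoresistant level. All 9 fell from chemoresistant to chemoresistant DTP cells, while over all tested genes 27.4% were called lower and 20.5% higher in that comparison. Their log2 fold changes ran from -3.25 to -0.51 with a median of -1.76, and their chemoresistant DTP means were 4.11 to 69.8% of the chemoresistant means, with a median of 17.4%. The chemoresistant libraries helped to choose the members for a high level, so these falls are read only beside that background. In bulk RNA, fewer cells expressing a gene and less RNA per cell cannot be told apart.

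TRIM22, an antiviral tripartite motif protein (chromosome 11, 5689689 to 5737089, plus strand, of GRCh38), ran from 12.1 to 16.7 FPKM (median 13.8) in chemoresistant libraries. In chemoresistant DTP libraries it ran from 0.438 to 0.843 FPKM (median 0.529), and parental DTP libraries were lower still at 0.0177 to 0.219 (median 0.0346). The 3 groups therefore did not overlap for TRIM22, and its log2 fold change within the chemoresistant line was -3.25 (SE 0.07), the lowest among members. Between the persister groups, which the rule did not use, it was 0.55 (SE 0.07, adjusted p = 1.72e-07). Both persister means of TRIM22 (0.0731 FPKM in parental DTP and 0.574 in chemoresistant DTP cells) were under the filter of 1 FPKM. It therefore entered this test only through the chemoresistant group that chose it. CMPK2, a mitochondrial nucleotide kinase, ran from 9.63 to 12.1 FPKM (median 11.1) in chemoresistant and from 0.811 to 1.10 (median 0.911) in chemoresistant DTP libraries. Its parental DTP libraries were at 0.0732 to 0.305 FPKM (median 0.140). DHX58, an RNA helicase of the RIG-I-like family, ran from 16.3 to 18.5 FPKM (median 17.3) in chemoresistant cells and from 1.72 to 2.65 (median 2.22) in their persisters. CMPK2 and DHX58 thus kept 8.49% and 12.9% of the chemoresistant mean, with no overlap between the groups (log2 fold changes -2.63 and -2.51, SE 0.05 and 0.06). TRIM22 shares its locus with TRIM5, and CMPK2 with RSAD2, each on the opposite strand. Whether counting used strand is not given in any source used here, so the split of reads between these partners is uncertain.

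LGALS9, the secreted lectin galectin-9, ran from 5.79 to 7.39 FPKM (median 6.14) in chemoresistant and from 0.726 to 1.10 (median 0.976) in chemoresistant DTP libraries. SAMD9L, a growth-restricting antiviral factor, ran from 4.52 to 7.96 FPKM (median 5.66) and from 0.687 to 1.20 (median 1.09) in the same groups. GBP1, a guanylate-binding GTPase, ran from 4.60 to 7.005 FPKM (median 5.27) and from 1.14 to 1.40 (median 1.29). None of the 3 overlapped between these groups, and their log2 fold changes were -1.92, -1.76 and -1.51. Parental DTP libraries of LGALS9, SAMD9L and GBP1 stayed at or below 0.351, 0.260 and 0.229 FPKM. APOL1 and APOL6, apolipoproteins of the L family, had chemoresistant DTP means of 1.79 and 1.95 FPKM beside 6.11 and 5.25 in chemoresistant cells.

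SLFN5, a Schlafen family member (chromosome 17, 35243036 to 35273655), was the member with the highest chemoresistant mean, at 17.5 to 24.4 FPKM (median 21.6). It kept more of its level than the other interferon-stimulated members, with 8.89 to 16.7 FPKM (median 16.1) in chemoresistant DTP libraries, or 69.8% of the chemoresistant mean. In parental DTP cells it was at 1.89 to 2.64 FPKM (median 2.23), above all parental libraries (0.259 to 0.436). SLFN5 was thus lower in DTP than in other cells of the chemoresistant line (log2 fold change -0.51, SE 0.11) and higher in DTP than in other cells of the parental line (1.28, SE 0.11), both as descriptions. Between the persister groups its log2 fold change was 2.28 (SE 0.11, adjusted p = 4.4e-15).

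The other interferon-stimulated genes of a list outside the prefixes left out by the rule were mostly lower in chemoresistant persisters too. Of 60 tested genes on that list that are no members, 58 were lower and 0 higher in chemoresistant DTP than in chemoresistant cells, with a median log2 fold change of -1.28. Against parental DTP cells, 43 of the 60 were higher and 7 lower in chemoresistant DTP cells (median 0.49). In parental DTP against parental cells 28 were higher and 9 lower, with a median of 0.12 beside 0.14 over all tested genes. That split is near the 45.8% higher and 19.7% lower of all tested genes. The background was 20.5% higher and 27.4% lower within the chemoresistant line, and 29.5% higher and 32.3% lower between the persister groups. ISG15, a ubiquitin-like interferon-induced protein, was the extreme of these 60 genes and not typical of them. It had their highest chemoresistant mean and their lowest log2 fold change within the chemoresistant line (-3.37, beside the median of -1.28). Its level was 559 ± 54.6 FPKM in chemoresistant and 54.3 ± 15.0 in chemoresistant DTP cells (SD, n = 6 each). Parental cells had 13.5 ± 1.55 FPKM of ISG15, and their persisters 11.1 ± 5.20.

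The 4 stress and amino acid transport members were well above their parental level in parental persisters. All 4 were higher in parental DTP than in parental cells, with log2 fold changes from 1.73 to 3.50 and parental DTP means at 34.1 to 94.3% of the chemoresistant means. The group was formed after the values were seen, so a shared rise cannot be read as a trait of this role. FBLL1 and ISCA1P4, which were grouped elsewhere, had log2 fold changes of 1.67 and 2.69 in that comparison. Over all 35 members, 17 were called higher and 0 lower in that comparison, against a background of 45.8% higher and 19.7% lower. Rescaling by relative log expression factors changed the split over all genes from 6283 higher and 2711 lower to 4422 and 4438, moved the median over all genes from 0.14 to 0, and left 15 members higher. In 14 members (13 of those called, and APOL6) all parental DTP libraries lay above all parental ones, beside 32.8% of tested genes. The parental libraries helped to choose the members, so nothing is read from these counts beyond that background.

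ADM2, a secreted peptide hormone of the calcitonin family (chromosome 22, 50481556 to 50486440), ran from 0.312 to 0.469 FPKM (median 0.348) in parental and from 13.5 to 15.4 (median 14.5) in parental DTP libraries. Chemoresistant libraries were at 14.2 to 16.9 FPKM (median 15.1) and chemoresistant DTP libraries at 17.5 to 20.2 (median 18.3). Parental DTP and chemoresistant libraries thus overlapped for ADM2, and the chemoresistant DTP libraries lay above both (log2 fold change 0.34 against parental DTP, SE 0.05, adjusted p = 1.05e-06). SLC43A1, a transporter of large neutral amino acids, ran from 4.46 to 4.88 FPKM (median 4.57) in parental DTP cells, 12.4 to 15.2 (median 13.3) in chemoresistant cells and 10.4 to 12.5 (median 11.8) in chemoresistant DTP cells. ULBP1, a ligand of the natural killer cell receptor NKG2D, ran from 3.73 to 5.41 FPKM (median 4.76), 6.54 to 9.03 (median 7.74) and 5.61 to 7.44 (median 7.07) in the same order. NUPR1, a stress-induced nuclear protein, ran from 2.29 to 3.64 FPKM (median 2.57), 4.84 to 5.39 (median 5.09) and 3.85 to 6.00 (median 4.58). For SLC43A1, ULBP1 and NUPR1 the parental DTP libraries lay between the parental libraries and both chemoresistant groups without overlap, and the 2 chemoresistant groups overlapped.

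Conjugation and export members stayed low in parental persisters and high in chemoresistant ones. ABCC2, an export pump for glucuronide and glutathione conjugates (chromosome 10, 99782640 to 99852594), ran from 7.65 to 9.09 FPKM (median 8.37) in chemoresistant and from 11.2 to 16.7 (median 15.6) in chemoresistant DTP libraries. Its parental DTP libraries were at 0.0873 to 0.470 FPKM (median 0.121). On the log2(FPKM + 1) scale, ABCC2 had the largest log2 fold change of any member between the persister groups (3.72, SE 0.08, adjusted p = 1.97e-21). That scale understates the change of members nearer 0 in parental DTP cells, such as CEACAM5, so the rank belongs to the scale. The ABCC2 log2 fold change from chemoresistant to chemoresistant DTP cells was 0.77 (SE 0.08), without overlap. UGT1A7, a glucuronosyltransferase, ran from 11.5 to 13.1 FPKM (median 11.8) in chemoresistant and from 11.7 to 12.8 (median 12.4) in chemoresistant DTP libraries, which overlapped, and from 0.284 to 0.752 (median 0.384) in parental DTP libraries. UGT1A7 shares exons with the other genes of the UGT1A cluster, so its level is uncertain as far as counting could split such reads.

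The other targets of NRF2, the regulator of conjugation and glutathione genes named in the series title, were also mostly higher in chemoresistant persisters. Of 39 tested list genes outside the members, 37 were higher and 1 lower in chemoresistant DTP than in parental DTP cells (median log2 fold change 1.00). Within the chemoresistant line 27 were higher and 5 lower in DTP cells (0.30), and within the parental line 22 were higher and 7 lower (0.28). Of 14 tested cytochrome P450, glucuronosyltransferase, sulfotransferase and carboxylesterase genes outside the members, 7 were higher and 4 lower between the persister groups (0.13). This list shares UGT1A1, UGT1A6, CYP4F3 and CYP4F11 with the NRF2 list, all of them higher there, so the counts are not separate results. In DTP against other cells, 3 of the 14 were higher and 4 lower in the chemoresistant line (-0.03), and 5 were higher and 0 lower in the parental line (0.11). Both lists are to be read beside all tested genes, of which 29.5% were higher and 32.3% lower between the persister groups. Within the chemoresistant line these shares were 20.5% and 27.4%, and within the parental line 45.8% and 19.7%.

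**Figure D3:**
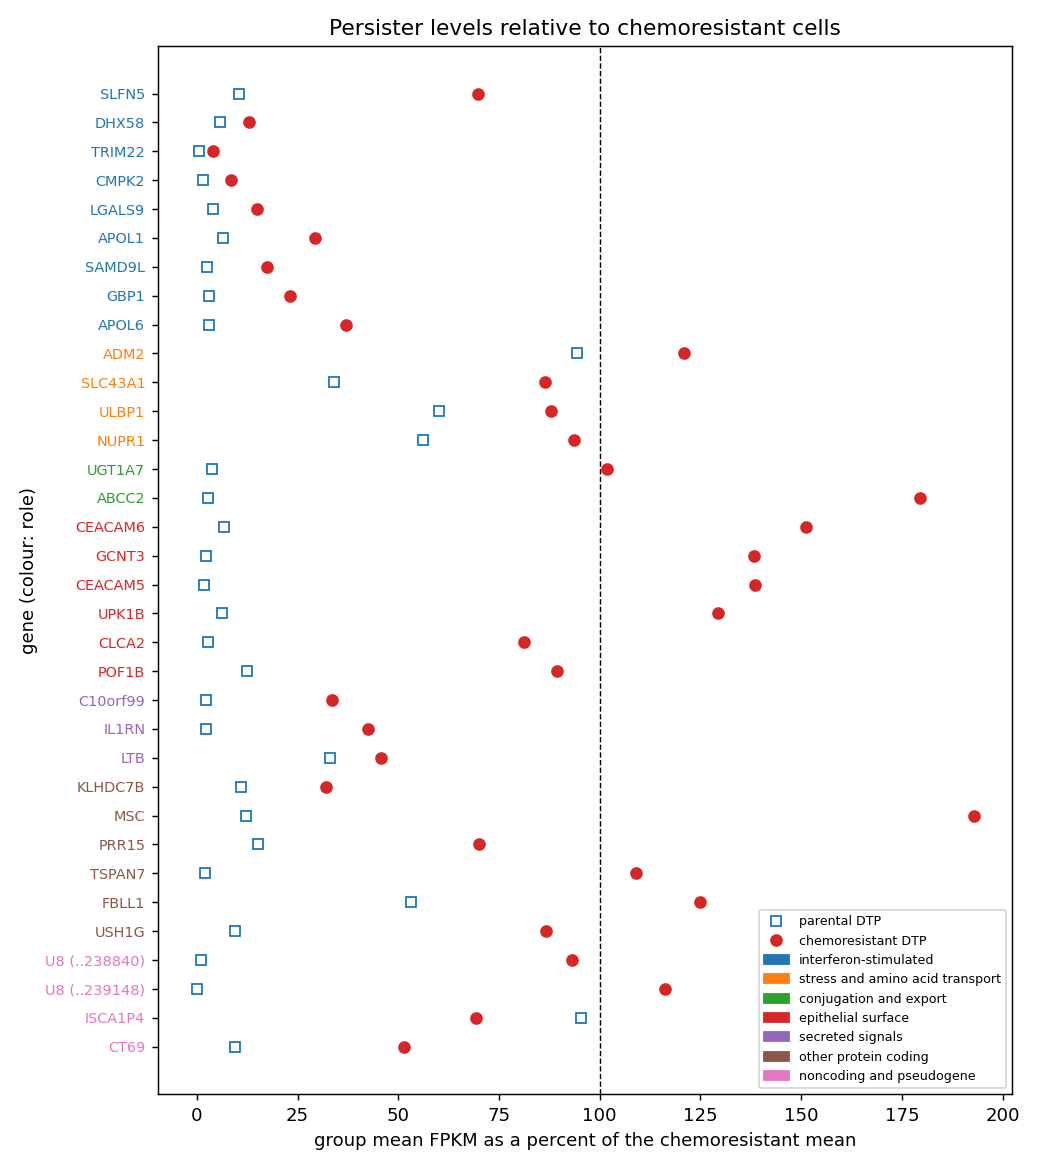
Group mean FPKM of parental DTP (open squares) and chemoresistant DTP cells (filled circles) as a percent of the chemoresistant mean (dashed line at 100) for 34 of the 35 genes, ordered and coloured by role. Interferon-stimulated genes lie between 4.11 and 69.8% in chemoresistant DTP cells, ABCC2 and MSC lie furthest above 100, and ADM2 and ISCA1P4 have the highest parental DTP shares.

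Epithelial surface members had chemoresistant DTP means near or above their chemoresistant means. Of the 6, 3 rose (GCNT3, CEACAM5 and UPK1B), 1 fell (CLCA2) and 2 did not pass from chemoresistant to chemoresistant DTP cells, where over all tested genes 20.5% were called higher and 27.4% lower. With a pseudocount of 0.1, GCNT3, CEACAM5 and CLCA2 were no longer called. CEACAM5, the carcinoembryonic antigen (chromosome 19, 41708585 to 41729798), ran from 9.22 to 10.4 FPKM (median 9.91) in chemoresistant and from 10.4 to 14.8 (median 14.3) in chemoresistant DTP libraries. GCNT3, which branches mucin O-glycans, ran from 9.91 to 11.3 FPKM (median 10.8) and from 13.3 to 16.0 (median 14.8). UPK1B, a uroplakin of the urothelial surface, ran from 6.45 to 8.998 FPKM (median 8.55) and from 9.76 to 11.4 (median 10.5). The groups did not overlap for GCNT3 and UPK1B and overlapped for CEACAM5 through chemoresistant DTP library 2 (10.35 FPKM beside a chemoresistant maximum of 10.43), with log2 fold changes of 0.43, 0.43 and 0.34 for CEACAM5, GCNT3 and UPK1B. GCNT3 lies across GTF2A2, which is on the opposite strand and was at 10.8 to 15.4 FPKM as group means.

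CEACAM6, a neighbour of CEACAM5 whose start lies 42392 bases away on the same strand, ran from 8.97 to 12.2 FPKM (median 10.5) in chemoresistant and from 12.95 to 18.3 (median 17.0) in chemoresistant DTP libraries. These groups did not overlap for CEACAM6, but the test with 1 spread for all 24 libraries did not call it (log2 fold change 0.55, SE 0.23). With only the 12 libraries of both groups it was called. CEACAM7, which starts 1609 bases from CEACAM5, and CEACAM3 stayed at or below 0.0642 FPKM as group means in all 4 groups. CLCA2, a regulator of chloride conductance in stratified epithelium, had means of 6.52 and 5.30 FPKM in chemoresistant and chemoresistant DTP cells, and POF1B, an actin-binding protein of epithelial junctions, 5.56 and 4.98. In parental DTP cells the 6 means ran from 0.175 FPKM for CEACAM5 to 0.719 for CEACAM6. Both of these means rest mostly on parental DTP libraries 5 and 6, described below. Without those libraries they were 0.0119 and 0.0374 FPKM, while POF1B had 0.696 with and 0.693 without them.

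Of 21 other tested genes of mucosal defence, 16 were higher and 2 lower in chemoresistant DTP than in parental DTP cells (median log2 fold change 0.89), while 3 were higher and 12 lower in chemoresistant DTP than in chemoresistant cells (-0.46). In parental DTP against parental cells 4 of these 21 were higher and 1 lower (0.10). Of 20 other squamous surface differentiation genes, 16 were higher and 0 lower between the persister groups (0.84). Within the chemoresistant line 9 of those 20 were higher and 1 lower in DTP cells (0.11), and within the parental line 8 were higher and 4 lower (0.06). Cancer-testis antigens had only 3 tested genes, of which 2 were higher and 1 lower between the persister groups. In DTP cells 1 of the 3 was lower in the chemoresistant and 2 in the parental line, with 0 higher. All these list counts stand beside backgrounds of 29.5% higher and 32.3% lower between the persister groups. The backgrounds were 20.5% and 27.4% within the chemoresistant line, and 45.8% and 19.7% within the parental line.

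The 3 members grouped as secreted signals were C10orf99, IL1RN and LTB. The name is loose, because LTB is membrane-bound and the secreted ADM2 and LGALS9 described above were grouped elsewhere. All 3 were called lower in chemoresistant DTP than in chemoresistant cells. LGALS9 was called lower there too, while ADM2 was called higher. Over all tested genes 27.4% were called lower and 20.5% higher in that comparison. The group was formed after the values were seen and its chemoresistant level was chosen high, so this count is only a description. C10orf99, a secreted ligand of mucosal epithelia also named GPR15LG, ran from 12.4 to 15.9 FPKM (median 15.3) in chemoresistant, 4.39 to 6.50 (median 4.57) in chemoresistant DTP and 0.0983 to 0.730 (median 0.319) in parental DTP libraries. The 3 groups were apart for C10orf99 (log2 fold change -1.41 within the chemoresistant line, SE 0.09, and 2.15 between the persister groups, SE 0.09, adjusted p = 6.7e-16). IL1RN, the interleukin-1 receptor antagonist, had a mean of 3.65 ± 0.367 FPKM in chemoresistant DTP beside 8.61 ± 0.314 in chemoresistant cells (SD, n = 6 each). LTB, a membrane-bound lymphotoxin subunit, had means of 0.493 FPKM in parental, 1.73 in parental DTP, 5.23 in chemoresistant and 2.39 in chemoresistant DTP cells. Its 2 persister groups overlapped, at 1.48 to 2.04 and 1.80 to 3.59 FPKM, and its log2 fold change between them was 0.29 (SE 0.09, adjusted p = 0.00953).

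Of the 7 remaining protein coding members, 1 was called higher, 2 lower and 4 did not pass within the chemoresistant line, shares near the 20.5% and 27.4% of all tested genes. MSC, the transcription factor musculin (chromosome 8), ran from 6.59 to 8.51 FPKM (median 7.03) in chemoresistant and from 12.5 to 16.8 (median 13.5) in chemoresistant DTP libraries, the highest log2 fold change of any member there (0.86, SE 0.07). Its parental DTP libraries were at 0.691 to 1.14 FPKM (median 0.842). KLHDC7B, a kelch domain protein, and PRR15, a proline-rich protein, fell, with means of 3.27 and 4.29 FPKM in chemoresistant DTP beside 10.2 and 6.12 in chemoresistant cells. KLHDC7B lies 64335 bases from ADM2 on chromosome 22, yet the 2 differed in parental DTP cells, at 10.9 and 94.3% of their chemoresistant means.

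FBLL1, a fibrillarin-like protein, ran from 1.82 to 4.18 FPKM (median 2.79) in parental DTP, 4.29 to 6.37 (median 5.44) in chemoresistant and 5.16 to 9.32 (median 6.65) in chemoresistant DTP libraries. Chemoresistant libraries overlapped with those of their persisters for FBLL1 and not with those of parental persisters. TSPAN7, a tetraspanin, had a chemoresistant DTP mean of 6.58 FPKM and a parental DTP mean of 0.127. USH1G, a scaffold protein known from inner ear hair cells, had means of 4.39 and 0.486 FPKM in the same groups.

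The noncoding members rest on few reads or lie inside other loci. Both U8 snoRNA genes, copies related to the small nucleolar RNA that guides large ribosomal subunit processing, lie in the aldo-keto reductase 1C cluster on chromosome 10. They are printed from the GENCODE release 29 transcripts (GRCh38) because they are 133 bases long and differ from each other at 2 bases, marked by capitals. Short reads away from those bases could therefore have come from either copy. The first copy is on the minus strand (4962436 to 4962568) and the second on the plus strand (5004710 to 5004842).
U8 (ENSG00000238840): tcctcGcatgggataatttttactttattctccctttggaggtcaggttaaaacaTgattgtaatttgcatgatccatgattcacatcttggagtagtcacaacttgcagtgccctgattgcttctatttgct
U8 (ENSG00000239148): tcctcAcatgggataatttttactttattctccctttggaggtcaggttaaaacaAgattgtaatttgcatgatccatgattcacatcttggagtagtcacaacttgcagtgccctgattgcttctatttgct

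Aligned to SNORD118, the annotated U8 gene, the copies were identical at 69.6% and 70.6% of aligned bases. The first copy had 8.47 to 24.9 FPKM (median 14.4) in chemoresistant and 7.08 to 25.8 (median 13.4) in chemoresistant DTP libraries, which overlapped, from 23 to 79 and 19 to 87 reads. It had 0 reads in all parental libraries and in parental DTP libraries 1 to 4, and 2 and 1 reads in libraries 5 and 6. The second copy had 0 reads in all 12 parental and parental DTP libraries, and 3 to 58 and 4 to 70 reads in chemoresistant and chemoresistant DTP libraries. AKR1C1, which starts 685 bases from the first copy on the opposite strand, had means of 1.30, 2.76, 80.4 and 101.7 FPKM in parental, parental DTP, chemoresistant and chemoresistant DTP cells. AKR1C2, whose body covers the second copy on the opposite strand, had 5.05, 9.34, 224.9 and 270.9. Reads of the host locus and of the snoRNA copies cannot be told apart here.

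ISCA1P4, a processed pseudogene on chromosome 15, was the one member not called between the persister groups. It ran from 4.76 to 9.49 FPKM (median 7.21) in parental DTP, 5.64 to 12.3 (median 7.15) in chemoresistant and 3.67 to 7.15 (median 4.97) in chemoresistant DTP libraries. These 3 groups overlapped, with 10 to 43 reads per library, and the log2 fold change between the persister groups was -0.39 (SE 0.18, adjusted p = 0.06, 6 libraries each). The call changed sides with the libraries used: ISCA1P4 was lower in chemoresistant DTP cells, as the only member called lower, without chemoresistant DTP library 4 or 6 or without parental DTP library 1 or 4. Its start lies 4093 bases from that of CHAC1, a stress-induced glutathione-degrading enzyme on the opposite strand, with means of 1.04, 24.99, 43.5 and 62.6 FPKM in parental, parental DTP, chemoresistant and chemoresistant DTP cells. CT69, a long noncoding RNA, had means of 0.339, 0.575, 6.04 and 3.12 FPKM in that order.

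Parental DTP libraries 5 and 6 stood apart from libraries 1 to 4 in these genes. Both lay above all of the other 4 in 20 of 35 members (57.1%), against 17.7% of all tested genes. Among the 21 members with a mean under 0.5 FPKM in libraries 1 to 4 this was so in 17 (81.0%), beside 140 of 447 tested genes equally low there (31.3%); choosing genes by a low level in libraries 1 to 4 favours such a gap, so these shares are descriptions. CEACAM6 was at 1.27 and 2.90 FPKM in libraries 5 and 6 and at 0 to 0.0617 in the other 4. GCNT3 was at 0.621 and 0.558 FPKM beside 0.0422 to 0.0709, and CEACAM5 at 0.482 and 0.520 beside 0 to 0.0343. ABCC2 was at 0.437 and 0.470 FPKM beside 0.0873 to 0.135. Of the members at or above 1 FPKM in libraries 1 to 4, NUPR1 (3.64 and 3.51 beside 2.29 to 2.58 FPKM) and ISCA1P4 (9.48 and 9.49 beside 4.76 to 7.57) also had both libraries above the other 4, and ADM2, SLC43A1, ULBP1, SLFN5, FBLL1 and LTB did not. KLHDC7B, near 1 FPKM there, had them above as well (1.40 and 1.37 beside 0.872 to 1.04). DHX58, at a like level, did not (0.997 and 1.21 beside 0.833 to 1.10), nor did MSC and PRR15.

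Expressed against the chemoresistant mean, the excess of libraries 5 and 6 over libraries 1 to 4 in those 21 members had a median of 2.34%, with a range of 0 to 19.1%, and against the chemoresistant DTP mean a median of 3.61% (0 to 35.6%). What these libraries share was not tested. Without them, 14 instead of 17 members were called higher in parental DTP than in parental cells: CEACAM6 (log2 fold change 0.02), GCNT3 (0.04) and APOL1 (0.07) were no longer called. With all 6 libraries their values were 0.53, 0.23 and 0.26. The count of 34 members higher in chemoresistant DTP than in parental DTP cells was 34 without them too.

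**Figure D4:**
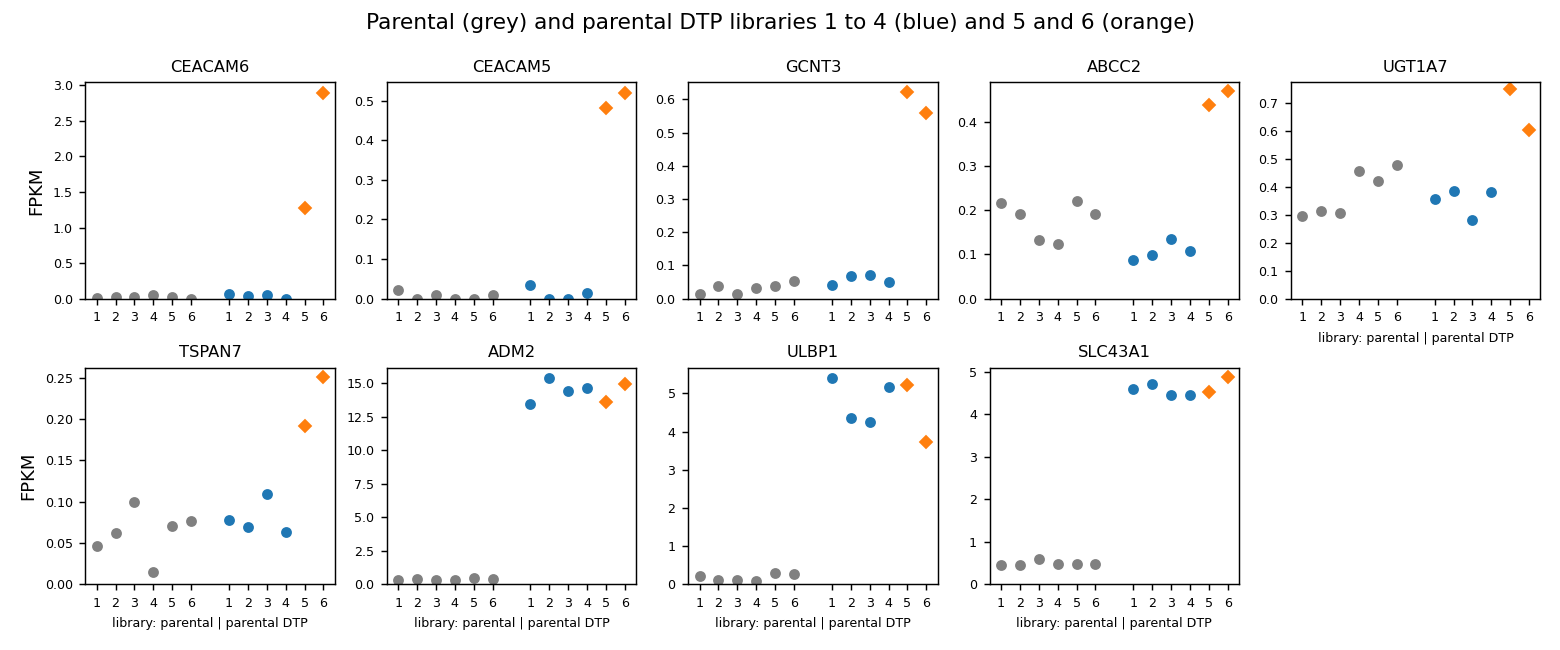
FPKM of 9 genes in each parental library (grey circles, numbered 1 to 6) and each parental DTP library (1 to 4 blue circles, 5 and 6 orange diamonds); each panel has its own linear axis from 0. CEACAM6, CEACAM5, GCNT3, ABCC2, UGT1A7 and TSPAN7 are higher in libraries 5 and 6 than in 1 to 4, and ADM2, ULBP1 and SLC43A1 are high in all 6.

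Taking the 4 groups in order, 10 members had a parental DTP mean of at least 1 FPKM, 6 were between 0.5 and 1 and 19 were under 0.5. Only 7 members reached 20% of their chemoresistant mean there. In chemoresistant DTP cells 23 members kept at least 50% of the chemoresistant mean, 11 of them at least 100%, and 12 kept less, with 3 (TRIM22, CMPK2 and LGALS9) under 1 FPKM. From chemoresistant to chemoresistant DTP cells 6 members (17.1%) were called higher and 18 (51.4%) lower, and 11 did not pass; over all tested genes 20.5% were called higher and 27.4% lower. All 6 chemoresistant DTP libraries lay above all 6 chemoresistant ones in 6 members (the risen ones except CEACAM5, and CEACAM6) and below them in 15, with backgrounds of 10.7% and 17.2% of tested genes. Per library, the median member stood at 1.96 to 2.64% of its chemoresistant mean in parental, 2.94 to 6.97% in parental DTP and 63.9 to 84.5% in chemoresistant DTP libraries. Parental DTP libraries 5 and 6 (6.18 and 6.97%) were the highest of their group, and chemoresistant DTP library 2 (63.9%) was the lowest of its own. That library 2 was not low in all members. It was the lowest of its group for some, such as SLFN5, ABCC2, SAMD9L and POF1B. For GCNT3, UPK1B, MSC, FBLL1, TSPAN7, LTB, NUPR1 and USH1G it was the highest.

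The members are spread over the genome, with 3 pairs of starts within 200000 bases: both U8 copies, CEACAM5 with CEACAM6, and ADM2 with KLHDC7B. Of the 35, 31 are protein coding. RefSeq promoter windows (250 bases before to 50 after a transcript start, GRCh38.p14) were found for 22 members, with 29 windows. Their median ratio of observed to expected CpG was 0.25 beside 0.579 over 35116 windows of all genes, and their median GC content 53.3% beside 58.7%. These are descriptions with no test.

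Motif letters were searched on both strands of these windows, and a match is not evidence of binding. The core of the interferon-stimulated response element, GAAA and GAAA with any 2 bases between, was in 5 windows of 4 members (17.2%) beside 3.57% of all windows; 2 of the 5 are overlapping windows of IL1RN that hold the same match. The letters of the TATA box, TATAAA, were in 24.1% beside 11.5%, counted anywhere in the window. Relative to the transcript start, they lay at -30 in C10orf99 and close to that place in IL1RN. They lay at -139 in CEACAM6, -200 in CLCA2 and -236 in ABCC2, and after the start in SLC43A1 (at 18) and ULBP1. The 24.1% is therefore not a share of promoters with a TATA box in its usual place. The AP-1 site, TGANTCA, was in 13.8% beside 7.71%. The antioxidant response element core, TGAC and GC with any 3 bases between, was in 6.9% beside 13.3%. The 10-base NF-kB consensus whose reverse complement stands in the LTB stretch printed below was in 6.9% beside 0.191%, both being overlapping windows of LTB. The matches of the interferon element and of NF-kB are printed, 5′ to 3′ on the gene's strand. Each match is in capitals, with at most 10 bases on each side. From chemoresistant to chemoresistant DTP cells GBP1, IL1RN, LGALS9 and LTB fell and ABCC2 rose. Whether a match, or its absence, bears on any change in level was not tested. In GENCODE release 29 the GBP1, LGALS9 and LTB stretches overlap an exon of a transcript of the same gene, that of IL1RN is intronic to a longer transcript, and that of ABCC2 lies outside the gene.
GBP1, chr1:89065316-89065345, minus strand: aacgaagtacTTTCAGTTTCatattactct
IL1RN, chr2:113127357-113127386, plus strand: caatgaagggGAAATAGAAAtcttaatttt
LGALS9, chr17:27631169-27631188, plus strand: gttgctttggTTTCTATTTC
ABCC2, chr10:99782490-99782519, plus strand: atgtccttagGAAAATGAAAgactgtgcac
LTB, chr6:31582492-31582521, minus strand: aggggtgtgcGGAAAGTCCCagccaggtgt

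The GBP1 and LGALS9 matches read as the reverse complement of the core. No promoter window with the interferon element was found for CMPK2 or SAMD9L. DHX58, TRIM22, SLFN5, APOL1 and APOL6 had no window in the table.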

How the data were processed

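RNA sequencing libraries of 4 groups of 6 were grouped by their labels. The submitters' processing notes name GRCh38; for the aligner, counter, annotation and strandedness the entry is: not given in the sources used here. Per the file headers, the authors deposited FPKM for 61251 genes and 24 libraries; 23 broken lines without values were dropped. Each library's FPKM had steps worth 1 read, which gave back whole reads for all 41101 genes with a value above 0 (within 0.02 reads), used for depth and 1 alternative test.

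The 13729 genes whose mean reached 1 FPKM in any group entered limma 3.58.1 in R 4.3.3, with a mean-variance trend, on log2(FPKM + 1) and 4 group means over all 24 libraries. Fold changes are on that scale, which understates the change of low genes. All 35 members passed the filter, through the chemoresistant group by which they were chosen, so counts over them are set beside all tested genes. Tests were two-sided, with Benjamini-Hochberg adjustment and a threshold of 0.05. The code recovered known changes when tested on simulated data.

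The members, gene lists, role groups and alternatives were chosen with earlier results of these data known. Values of every library were summarised for the 10 members highest in chemoresistant cells, the 6 highest in parental DTP cells, and the 6 largest rises and falls called between chemoresistant DTP and chemoresistant cells; others are given by means, and 1 member, which stays in the counts, is not reported here. Non-members named beside them (neighbours, ISG15) were chosen after their values were seen. Gene IDs were matched to GENCODE release 29 for coordinates (35 of 35 members). Promoters came from RefSeq (GRCh38.p14). Alternatives were another pseudocount, no filter, a stricter filter, relative log expression factors, only the 12 libraries compared, a replicate block, voom on recovered reads, and leaving out libraries.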

Additional observations from a re-analysis of the deposited data

Results flagged for a closer look

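In 87 groups of 6 libraries of 22 members, 7 held a library far from the other 5 by Dixon's criterion; chance alone flags about 1 in 20 groups. Chemoresistant DTP library 2 was the low one in 4 of them. SLFN5 was at 8.89 FPKM there beside 15.4 to 16.7, CEACAM5 at 10.4 beside 13.5 to 14.8, ABCC2 at 11.2 beside 15.1 to 16.7 and SAMD9L at 0.687 beside 1.04 to 1.20. The same library was the highest of its group for other members, such as MSC (16.8 FPKM) and GCNT3 (16.0), without being flagged. Chemoresistant library 4 was low for C10orf99 (12.4 FPKM beside 14.8 to 15.9) and high for ISCA1P4 (12.3 beside 5.64 to 7.69). Parental library 3 was high for SLC43A1 (0.594 FPKM beside 0.442 to 0.465).

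For 6 members all DTP libraries lay above the other libraries in the parental line and below them in the chemoresistant line. The difference between the lines was not tested. Members were chosen low in parental and high in chemoresistant cells, which favours this pattern, so it is only a description. Its share over all tested genes was not computed. Taken singly, the parental-line part was so for 32.8% of tested genes and the chemoresistant-line part for 17.2%. The log2 fold changes of DTP against other cells were 1.28 in the parental and -0.51 in the chemoresistant line for SLFN5, and 0.47 and -2.51 for DHX58. KLHDC7B had 0.85 and -1.41, LTB 0.87 and -0.89, PRR15 0.38 and -0.43, and APOL6 0.13 and -1.09, of which the rise of APOL6 did not pass the threshold.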

How the results depend on the processing

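The 34 members higher in chemoresistant DTP than in parental DTP cells were 34 under all 20 alternatives run, and no member's call reversed direction in any comparison. With the stricter filter, which tests fewer genes, the genes called between the persister groups were 2431 higher and 2464 lower, those called higher in parental DTP cells 2951 and those called lower in chemoresistant DTP against chemoresistant cells 1845. Relative log expression factors gave 4438 genes lower in parental DTP cells. Members lower in parental DTP cells were 2 with a pseudocount of 0.1 (GBP1 and IL1RN) and 1 with voom on recovered reads (IL1RN), an alternative chosen after seeing the data; the cause was not tested.

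Leaving out 1 library at a time gave 0 to 1 members lower between the persister groups (ISCA1P4), 14 to 19 higher in parental DTP cells, and 6 to 7 higher and 17 to 19 lower in chemoresistant DTP cells against chemoresistant cells. The remaining alternatives gave 4 to 7 higher and 16 to 18 lower in chemoresistant DTP against chemoresistant cells. Over all alternatives 1, 12 and 7 members changed sides of the threshold in the 3 comparisons. Same-numbered libraries did not clearly deviate together (lowest correlation -0.385, highest 0.403), so no pairing by number was seen. Weak correlations cannot show that same-numbered libraries were handled apart. With the replicate block 1 member (ISCA1P4) was lower between the persister groups and 34 were higher. The planned edgeR and DESeq2 alternatives were not run, because the deposited unit is FPKM. Genes at 0 reads in parental libraries are limited by depth.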
